A study of Caenorhabditis elegans with 26 samples.

Results

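The miRNAs lsy-6-3p, miR-124-3p, miR-790-5p and miR-791-3p were followed in *C. elegans* larvae as miRNAs of neurons. They were chosen by name, with earlier results of these data known. They are 4 of the 437 mature miRNA strands in the count table. All 4 were among the 217 strands with enough reads to be tested. Small RNA libraries came from whole larvae of HW2643, a strain with the allele mir-235(xe181[seed_mutant]) that is named mir-235(seed_mut), or simply the mutant, and of the wild type N2. In the mutant, genome editing had replaced bases in the seed of miR-235, the stretch by which a miRNA pairs with its targets; the hairpins of the 4 neuronal miRNAs were not edited. Arrested L1 larvae of both strains were placed on food at 2000 worms per 10 cm plate and kept at 25 °C with no treatment, and 1 library was made for each hour between 18 h and 30 h, giving 13 libraries per strain. No hour has a replicate and each strain is 1 line in 1 series of cultures, so the p-values rest on how hourly libraries scatter about a fitted curve, and a strain effect cannot be told apart from a culture effect.

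A miRNA is cut from a hairpin whose 5p and 3p arms each give a mature strand, and usually the strand that is loaded into Argonaute accumulates. lsy-6 is a textbook case of a miRNA that sets a neuronal fate: it acts in the left ASE taste neuron, where it represses the homeobox gene *cog-1* and so makes the left and right ASE neurons differ. miR-124 is conserved across animals as a miRNA of nervous systems and in *C. elegans* is made in many sensory neurons, while miR-791 acts in the neurons that sense CO2, where it represses *akap-1* and *cah-3*. In the WBcel235 annotation, *mir-124* lies in an intron of *trpa-1*, an ion channel gene on chromosome IV, on the same strand. The *lsy-6* gene is on chromosome V between C32C4.3 and C32C4.16, and *mir-791* on chromosome X between F13D11.3 and *hbl-1*. The interval on chromosome IV between *ari-2* and T12E12.6 holds *mir-790* together with *mir-228*, on the same strand, and the promoter of *mir-228* is widely used to mark glia.

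Library totals ranged from 2658960 to 4279734 reads in the mutant and from 1342771 to 3587330 reads in N2. The N2 library of 23 h had the lowest total of all and a TMM normalisation factor of 0.697, the lowest of the 26. Of the 12 marker miRNAs of other tissues, miR-60-3p of the intestine and let-7-5p, a temporal miRNA of the epidermis, rose over the hours (miR-60-3p not when scaled by total counts, edgeR adjusted p = 0.0328, nor without the mutant library of 22 h, 0.0105), miR-228-5p of glia fell, 8 were not called for a slope and miR-41-3p was too low to test. miR-1-3p, the muscle miRNA, was at 26284 to 40020 CPM (reads scaled to a common library total) in the mutant and 20771 to 35845 CPM in N2. The 3p strands of miR-35 to miR-41, which embryos and germ cells make, summed to 1023 to 2047 CPM in the mutant and 869 to 2089 CPM in N2. The 4 neuronal miRNAs were detected in every library and together held between 0.00607% and 0.0132% of the reads of a mutant library and between 0.00513% and 0.0113% of those of an N2 library.

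Within this small share, miR-124-3p was the most abundant, followed by lsy-6-3p, miR-790-5p and miR-791-3p in both strains. Ranked by mean CPM among the 437 strands, they stood at 136, 167, 187 and 195 in the mutant and at 143, 169, 181 and 194 in N2. miR-124-3p exceeded lsy-6-3p in 13 of 13 mutant libraries and 13 of 13 N2 libraries, with ranges that did not overlap in the mutant and did in N2. The level of lsy-6-3p was above that of miR-790-5p in 12 of 13 mutant libraries and 11 of 13 N2 libraries, with ranges that overlapped in both. The lowest neighbours, miR-790-5p and miR-791-3p, overlapped in range in both strains, and miR-790-5p was the higher in 10 of 13 libraries of each strain. Each read counts for 1 mature strand, so no scaling by length applies, and differences between sequences in how well they are ligated were not corrected.

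Between 18 h and 30 h, 2 of the 4 miRNAs, lsy-6-3p and miR-790-5p, fell in counts scaled by TMM factors. The slopes of miR-124-3p and miR-791-3p were also below 0 and did not pass the test, and 0 of the 4 rose. Among all 217 tested strands 43 fell (19.8%) and 45 rose (20.7%), at an adjusted p under 0.01 in edgeR's quasi-likelihood test of a line in time beside a rhythm with a period of 7 h. The median slope was −0.052 log2 per h over the 4 members and −0.000495 log2 per h over all 217. Because the members were chosen with earlier results of these data known, this comparison is a description only. Scaling by total counts in place of TMM factors gave 68 falling and 33 rising strands and 3 falling members, because miR-124-3p then passed. In whole larvae, a smaller share of cells of a type and less of the miRNA per cell cannot be told apart.

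**Figure D1:**
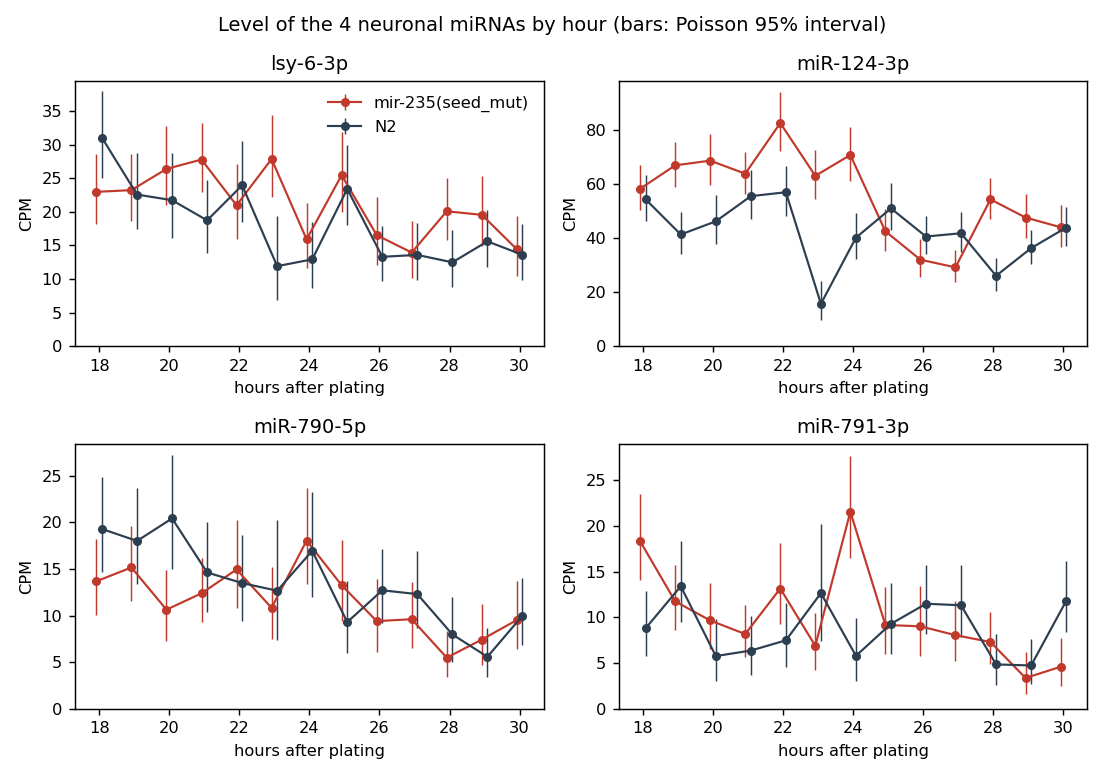
Level of lsy-6-3p, miR-124-3p, miR-790-5p and miR-791-3p in CPM (vertical axis) against hours after plating (horizontal axis) in mir-235(seed_mut) (red) and N2 (dark blue); each point is 1 library and its bar the exact Poisson 95% interval of the count. lsy-6-3p and miR-790-5p end lower than they begin in both strains, miR-124-3p has its low at 23 h in N2 and at 27 h in the mutant, and miR-791-3p is highest in the mutant libraries of 24 h and 18 h.

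lsy-6-3p fell over both strains together. Its lowest, median and highest levels were 13.9 CPM (27 h), 21.0 CPM and 27.9 CPM (23 h) in the mutant, against 11.9 CPM (23 h), 15.6 CPM and 31.05 CPM (18 h) in N2. The level averaged 25.1 ± 2.37 CPM at 18 to 21 h (SD, n = 4), 21.4 ± 5.31 CPM at 22 to 26 h (n = 5) and 17.0 ± 3.27 CPM at 27 to 30 h (n = 4) in the mutant. In the same windows N2 had 23.5 ± 5.28, 17.1 ± 6.04 and 13.8 ± 1.30 CPM. In CPM all 4 late libraries were below all 4 early ones in each strain. Divided by TMM factors, the late and early libraries overlapped in the mutant and stayed apart in N2. CPM is scaled to library totals, and with that scaling the median slope of all 217 strands was −0.018 log2 per h. How many of all strands had all late libraries below all early ones was not counted, here or for the strands below. The fitted slope over both strains was −0.056 ± 0.017 log2 per h (SE; edgeR, adjusted p = 0.00605), which over 12 h is a fold of 0.626 (95% interval 0.470 to 0.832). The call was lost when any 1 of 8 libraries was left out, those of 21, 26, 27 and 30 h in the mutant and of 18, 26, 27 and 30 h in N2, with slopes that stayed between −0.067 and −0.050.

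The counts behind these levels were small. The lsy-6-3p reads per library ranged from 44 to 119 in the mutant and from 16 to 95 in N2. About a straight line in time, with a slope shared by the strains, they scattered with a variance 2.01 times that of counting alone. The opposite strand, lsy-6-5p, was almost absent, with 5 reads in the mutant and 5 reads in N2 over all 13 libraries of each. Thus 99.4% (Wilson 95% interval 98.7 to 99.8%) of the hairpin's reads in the mutant and 99.2% (98.2 to 99.7%) in N2 were lsy-6-3p.

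miR-124-3p had the highest level of the 4. It ranged over 29.1 CPM (27 h), 58.2 CPM (median) and 82.5 CPM (22 h) in the mutant, against 15.6 CPM (23 h), 41.8 CPM (median) and 56.9 CPM (22 h) in N2. The early, middle and late windows averaged 64.4 ± 4.57, 58.1 ± 20.7 and 43.7 ± 10.6 CPM in the mutant (SD, n = 4, 5 and 4), against 49.3 ± 6.75, 40.8 ± 15.8 and 37.0 ± 7.98 CPM in N2. In CPM the late libraries were all below the early ones in the mutant, whereas the 2 windows overlapped in N2. Divided by TMM factors, they overlapped in the mutant as well. The slope over both strains, −0.049 ± 0.016 log2 per h, missed the threshold (edgeR, adjusted p = 0.0139), with a 12 h fold of 0.668 (95% interval 0.506 to 0.880). This call turns on single libraries: it was made when any 1 of 7 was left out, and without the shallow N2 library of 23 h, which held 21 miR-124-3p reads, the slope was −0.061 log2 per h (edgeR, adjusted p = 0.000512). The other 6 were the N2 libraries of 19, 24, 25 and 30 h and the mutant libraries of 18 and 23 h.

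The lowest levels of miR-124-3p in the mutant came in consecutive hours. The level was 70.7 CPM at 24 h, 42.5 CPM at 25 h, 32.0 CPM at 26 h, 29.1 CPM at 27 h and 54.3 CPM at 28 h. At 27 h the mutant library held 94 reads where a straight line with a slope shared by the strains predicted 152. The scatter about that line was 4.74 times that of counting. The reads of the opposite strand, miR-124-5p, summed to 86 in the mutant and 87 in N2, so that 96.5% (95.7 to 97.1%) and 94.7% (93.5 to 95.7%) of the reads of the hairpin came from miR-124-3p.

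miR-791-3p, of the CO2-sensing neurons, was the least abundant and gave no common trend. Its levels were 3.37 CPM (29 h), 9.03 CPM (median) and 21.6 CPM (24 h) in the mutant, against 4.74 CPM (29 h), 8.82 CPM (median) and 13.4 CPM (19 h) in N2. Early, middle and late windows averaged 11.98 ± 4.48, 11.96 ± 5.83 and 5.83 ± 2.21 CPM in the mutant (SD, n = 4, 5 and 4), against 8.59 ± 3.47, 9.35 ± 2.81 and 8.18 ± 3.91 CPM in N2. In CPM the late mutant libraries were all below the early ones, by 8.06 CPM at 27 h against 8.18 CPM at 21 h, and the N2 windows overlapped. The counting intervals of these mutant libraries overlapped. Divided by TMM factors, the late and early mutant libraries overlapped as well. Over both strains the slope was −0.026 ± 0.031 log2 per h (edgeR, adjusted p = 0.492), and its 12 h fold of 0.805 had a 95% interval of 0.476 to 1.36. A decline as steep as that of lsy-6-3p lies within this interval, so the data do not show that miR-791-3p behaved differently.

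The mutant libraries of 24 h and 18 h had the highest levels of miR-791-3p, 21.6 and 18.3 CPM with 61 and 63 reads and overlapping counting intervals. At 24 h a straight line with a slope shared by the strains predicted 29.4 reads. The scatter about that line was 5.01 times that of counting, the highest among the 4. In the library of 24 h lin-4-5p, a temporal miRNA, also had its highest level of the mutant series, 1080 CPM against a median of 428 CPM, and so did both strands of the *mir-790* hairpin, whereas miR-791-5p was at 18.0 CPM, below its median of 24.9 CPM. Whether something in the preparation of that library takes part in these highs was not tested. Without it, the miR-791-3p slope over both strains was −0.029 log2 per h (edgeR, adjusted p = 0.405).

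miR-790-5p had the steepest fitted slope of the 4 and fell over both strains together. It was at 5.48 CPM (28 h), 10.8 CPM (median) and 18.0 CPM (24 h) in the mutant, against 5.58 CPM (29 h), 12.7 CPM (median) and 20.4 CPM (20 h) in N2. Early, middle and late windows averaged 12.96 ± 1.92, 13.3 ± 3.41 and 8.01 ± 1.96 CPM in the mutant (SD, n = 4, 5 and 4), against 18.1 ± 2.51, 13.02 ± 2.72 and 8.96 ± 2.86 CPM in N2. In CPM all late libraries lay below all early ones in each strain. The middle window was close to the early one in the mutant and lower than it in N2. Divided by TMM factors, the late and early libraries overlapped in the mutant and stayed apart in N2. The slope over both strains was −0.070 ± 0.020 log2 per h (edgeR, adjusted p = 0.00473), a 12 h fold of 0.560 (95% interval 0.398 to 0.786). It remained past the threshold without any 1 of the 26 libraries, with adjusted p between 0.000736 and 0.00931 in edgeR.

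The strands named miR-790-5p and miR-791-3p were the less abundant strands of their hairpins in these larvae. For *mir-790*, the 5p arm took 38.8% (36.1 to 41.5%) of the reads in the mutant and 40.8% (38.0 to 43.7%) in N2, and the 3p arm was the higher in 13 of 13 mutant and 10 of 13 N2 libraries. For *mir-791*, the 3p arm took 28.8% (26.5 to 31.1%) in the mutant and 24.9% (22.6 to 27.4%) in N2, and the 5p arm was the higher in 12 of 13 and 13 of 13 libraries. Both more abundant strands fell over the hours. miR-790-3p had a slope of −0.090 ± 0.019 log2 per h (edgeR, adjusted p = 0.00027) and miR-791-5p of −0.064 ± 0.018 log2 per h (edgeR, adjusted p = 0.0050), so the *mir-791* hairpin had 1 strand that passed the test and 1 that did not. The call of miR-791-5p was lost without the N2 library of 30 h (edgeR, adjusted p = 0.0122) and with no filter on low counts (edgeR, adjusted p = 0.0248).

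**Figure D2:**
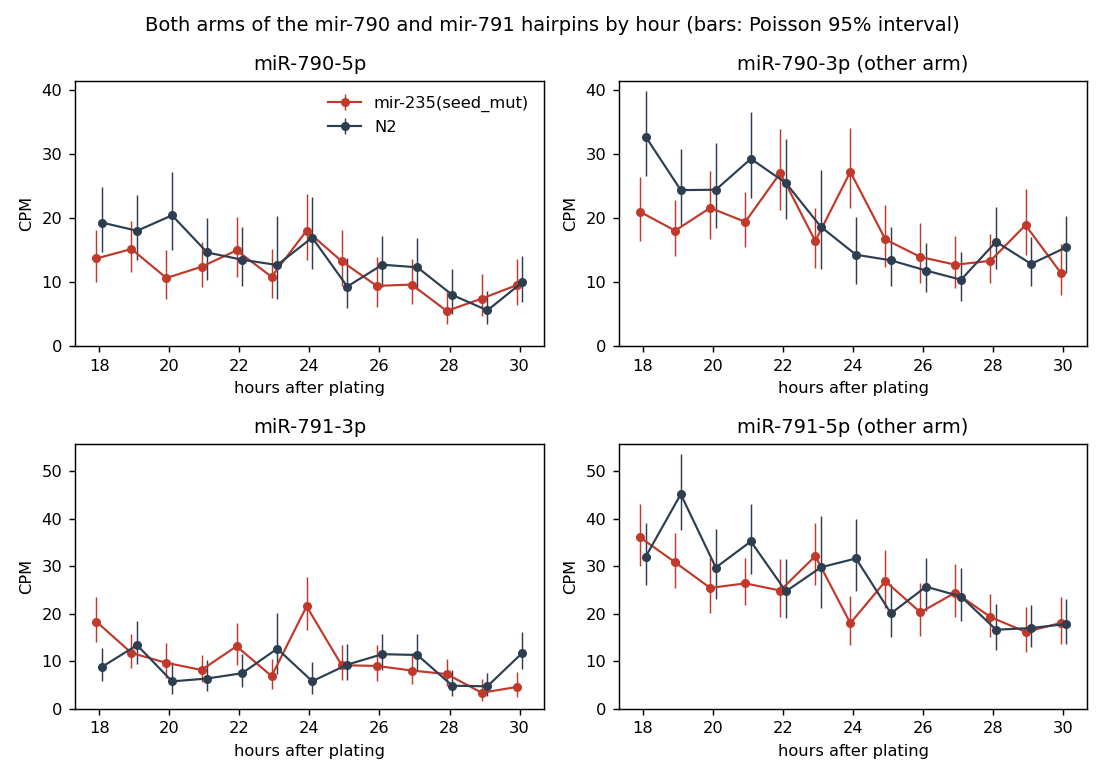
Both strands of the *mir-790* (upper row) and *mir-791* (lower row) hairpins in CPM (vertical axis, shared within a row) against hours after plating (horizontal axis), mir-235(seed_mut) in red and N2 in dark blue, with exact Poisson 95% intervals of each library. The strands on the right, miR-790-3p and miR-791-5p, lie above their partners on the left in most libraries.

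In N2 the late libraries of both more abundant strands lay below the early ones. miR-790-3p averaged 20.0 ± 1.60, 20.2 ± 6.37 and 14.1 ± 3.28 CPM in the mutant over the early, middle and late hours, against 27.7 ± 4.05, 16.7 ± 5.51 and 13.7 ± 2.69 CPM in N2 (SD, n = 4, 5 and 4). Its late and early libraries overlapped in the mutant and were apart in N2. miR-791-5p averaged 29.7 ± 4.87, 24.4 ± 5.56 and 19.5 ± 3.55 CPM in the mutant and 35.5 ± 6.81, 26.4 ± 4.54 and 18.8 ± 3.27 CPM in N2. In CPM its late libraries were below the early ones in both strains. Divided by TMM factors, they overlapped in the mutant and stayed apart in N2. The neighbour of *mir-790* on chromosome IV, *mir-228*, gave far more reads and fell as well: miR-228-5p averaged 11552 CPM in the mutant and 14222 CPM in N2, and its slope was −0.081 ± 0.019 log2 per h (edgeR, adjusted p = 0.0012).

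Strain by strain, 1 of the 8 fitted slopes of members passed the test. In the mutant 0 of the 4 members fell, beside 6.45% of all strands, though miR-124-3p had an unadjusted p under 0.05. Its mutant slope was −0.070 ± 0.022 log2 per h (edgeR, adjusted p = 0.0170), and without the N2 library of 23 h, which enters the shared estimate of spread, it passed (edgeR, adjusted p = 0.00378). In N2, 1 of the 4 fell, miR-790-5p with −0.094 ± 0.027 log2 per h (edgeR, adjusted p = 0.00925), beside 14.7% of all strands. That call was lost in 13 of the 26 fits that left out 1 library, with adjusted p of at most 0.0220. lsy-6-3p in N2 had a slope of −0.077 ± 0.024 log2 per h and just missed the threshold (edgeR, adjusted p = 0.0111); it passed without the N2 library of 23 h (edgeR, adjusted p = 0.00427).

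No member was shown to have a different slope in the 2 strains. The slope of lsy-6-3p was −0.036 log2 per h in the mutant and −0.077 in N2, that of miR-790-5p −0.045 and −0.094, that of miR-124-3p −0.070 and −0.027, and that of miR-791-3p −0.070 in the mutant and 0.020 in N2. The difference, mutant minus N2, was 0.04 (95% interval −0.027 to 0.109) for lsy-6-3p, −0.04 (−0.109 to 0.022) for miR-124-3p, 0.05 (−0.031 to 0.130) for miR-790-5p and −0.09 (−0.215 to 0.035) for miR-791-3p, in log2 per h. In edgeR the adjusted p was 0.719 for each, and none of the 217 strands (0%) passed, with 15 at an unadjusted p under 0.05. These intervals include differences as large as the slopes themselves.

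**Figure D3:**
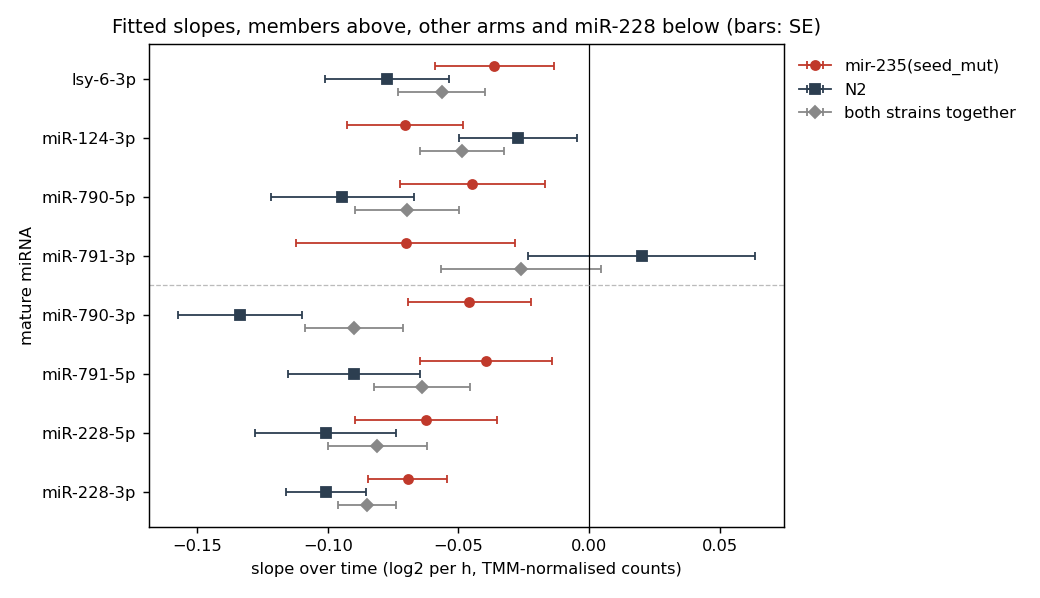
Fitted slope in log2 per h (horizontal axis) of the 4 neuronal miRNAs, and below the dashed line of the other strands of *mir-790* and *mir-791* and both strands of *mir-228*, for mir-235(seed_mut) (red circles), N2 (dark blue squares) and both strains together (grey diamonds), with bars of 1 SE. All slopes but that of miR-791-3p in N2 are below 0, and the mutant and N2 points of each member lie within 0.1 log2 per h of each other.

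Other miRNAs had steeper falls than the members. Counting from the steepest fall, miR-790-5p ranked 31 of 217, lsy-6-3p 41, miR-124-3p 51 and miR-791-3p 87, and the strands miR-790-3p and miR-791-5p ranked 17 and 34. The 2 strands of *mir-228* ranked 26 for miR-228-5p and 21 for miR-228-3p. The member with most reads, miR-124-3p, averaged 150 reads per library and miR-791-3p, with the fewest, 28.2.

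**Figure D4:**
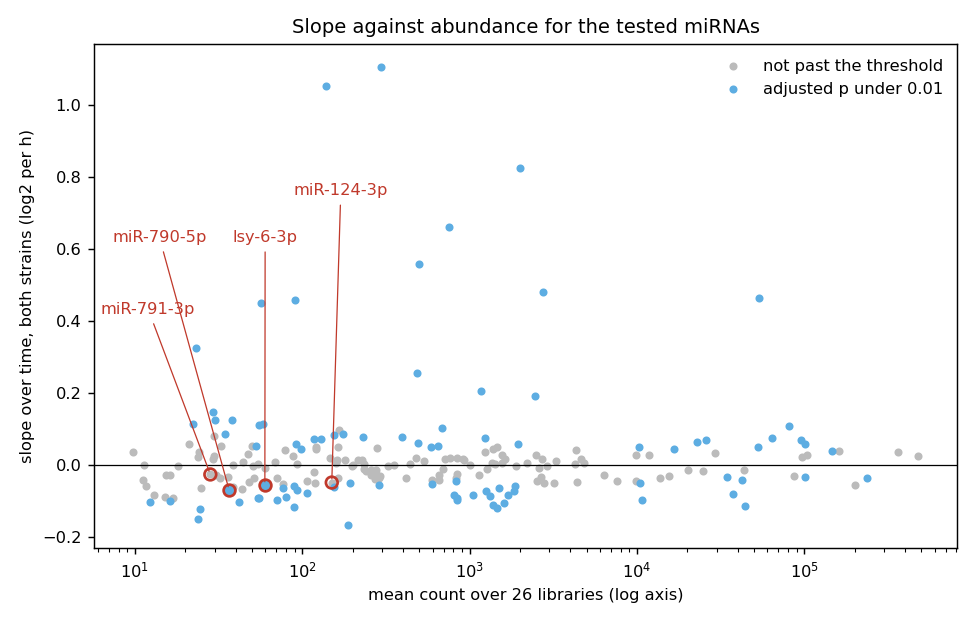
Slope over both strains in log2 per h (vertical axis) against the mean count per library (horizontal axis, logarithmic) for the 217 tested strands; blue points had an adjusted p under 0.01, grey points did not, and the 4 neuronal miRNAs are ringed in red. The members sit at mean counts of 28.2 to 150 and slopes of −0.070 to −0.026 log2 per h, within the cloud of the other strands.

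Ratios between members do not depend on the scaling of a library, and 0 of 6 passed a test of a change over time pooled over the strains. In 6 pairs, with 1 read added to each count, the slope of the log2 ratio was between −0.025 log2 per h for miR-790-5p over miR-791-3p and 0.041 ± 0.028 log2 per h for miR-124-3p over miR-790-5p. The smallest p was 0.159 for the pair of miR-124-3p and miR-790-5p, and 0.645 after adjustment over the 6 pairs (two-sided permutation test of the hours within strains). The SE of these slopes was between 0.020 log2 per h, for lsy-6-3p over miR-124-3p, and 0.038 log2 per h, for lsy-6-3p over miR-791-3p. Pooling can hide opposite courses. Over miR-791-3p, mutant and N2 slopes were 0.047 and −0.097 for miR-790-5p, 0.065 and −0.067 for lsy-6-3p, and 0.052 and −0.021 for miR-124-3p. They were 0.013 and −0.046 for lsy-6-3p over miR-124-3p. Over miR-790-5p they were 0.018 and 0.030 for lsy-6-3p, and 0.005 and 0.076 for miR-124-3p. Ratio slopes within a strain were not tested.

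The mean level of the members did not pass a test between the strains. Averaged over 13 hours, lsy-6-3p had 21.2 ± 4.94 CPM in the mutant and 18.1 ± 5.99 CPM in N2 (SD over hours), and miR-124-3p 55.6 ± 15.8 CPM in the mutant and 42.2 ± 11.7 CPM in N2. miR-790-5p had 11.6 ± 3.44 CPM in the mutant and 13.3 ± 4.48 CPM in N2, and miR-791-3p 10.1 ± 5.12 CPM in the mutant and 8.76 ± 3.12 CPM in N2. In CPM the mutant was the higher in 11 of 13 hours for lsy-6-3p, 10 for miR-124-3p, 4 for miR-790-5p and 6 for miR-791-3p. These counts depend on the scaling. Divided by TMM factors, lsy-6-3p was higher in N2 at 19, 20 and 27 h, where its CPM was higher in the mutant. The range of each member in the mutant overlapped that in N2.

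Along a curve in time shared by the strains, the log2 difference, mutant minus N2, was 0.12 ± 0.12 for lsy-6-3p, 0.25 ± 0.12 for miR-124-3p, −0.33 ± 0.13 for miR-790-5p and 0.03 ± 0.20 for miR-791-3p (SE). In edgeR the adjusted p was 0.497 for lsy-6-3p, 0.154 for miR-124-3p, 0.0860 for miR-790-5p and 0.906 for miR-791-3p. Thus 0 of 4 members were called, 1 of them with an unadjusted p under 0.05, beside 7.37% of the 217 strands. That share was 16 strands, or 1 strand when each hour was fitted as a block shared by the strains, and between 1 and 21 strands when 1 library was left out, with a change of more than 1.5 times in 21 of 26 such fits. The 95% intervals as folds were 0.915 to 1.29 for lsy-6-3p, 0.997 to 1.41 for miR-124-3p, 0.658 to 0.966 for miR-790-5p and 0.766 to 1.37 for miR-791-3p. The test of any strain difference at any hour called none of the 4 (edgeR, adjusted p between 0.310 and 0.784) and 0% of all strands, with 34 of them, miR-124-3p included, at an unadjusted p under 0.05.

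Rhythms with the 7 h period of the molting cycle were not called for the members in either strain. Amplitude is the log2 height of the peak over the midline. It was 0.09 ± 0.12 in the mutant and 0.05 ± 0.12 in N2 for lsy-6-3p and 0.35 ± 0.11 in the mutant and 0.13 ± 0.12 in N2 for miR-124-3p (SE). It was 0.31 ± 0.14 in the mutant and 0.15 ± 0.14 in N2 for miR-790-5p, and 0.42 ± 0.21 in the mutant and 0.37 ± 0.22 in N2 for miR-791-3p. The test called 0 of the 4 members in each strain, 1 of them with an unadjusted p under 0.05 in the mutant and 0 in N2. Among all strands, 2.30% were rhythmic in the mutant and 5.99% in N2, which was 5 strands in the mutant, or 1 to 18 when 1 library was left out. The median fitted amplitude was 0.20 in the mutant and 0.19 in N2. The lowest adjusted p of a member was that of miR-124-3p in the mutant (edgeR, adjusted p = 0.134; unadjusted 0.0212), with a fitted peak near 22.5 h. Its rhythm was not shown to differ between strains (edgeR, adjusted p = 0.569; unadjusted 0.0315); the only strand called there, 0.461% of 217, was miR-235-3p, the edited miRNA.

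The correlation between members varied in value from pair to pair and between the strains, and these differences were not tested. Over the 26 libraries the Pearson correlation of log2 CPM was 0.42 between lsy-6-3p and miR-124-3p and 0.46 between miR-790-5p and miR-791-3p, and between −0.09 and 0.14 for the other 4 pairs. Within the strains miR-790-5p and miR-791-3p were at 0.66 in the mutant and 0.37 in N2, lsy-6-3p and miR-124-3p at 0.28 in the mutant and 0.46 in N2, and lsy-6-3p and miR-790-5p at −0.18 in the mutant and 0.41 in N2. miR-790-5p correlated at 0.60 with miR-790-3p of its own hairpin. With the strands of the neighbouring hairpin it correlated at 0.74 for miR-228-5p and 0.58 for miR-228-3p. In this order the values were 0.51, 0.57 and 0.23 within the mutant and 0.62, 0.77 and 0.78 within N2. miR-791-3p and miR-791-5p correlated at 0.33 over the 26 libraries. These values share the library, its scaling factor and the trend over time, and are descriptions only.

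Among well-measured strands (a mean of at least 50 reads), the courses most like that of lsy-6-3p were those of miR-231-3p (r = 0.67), miR-242 (0.66) and miR-2-5p (0.62). Within the strains miR-231-3p was at 0.52 in the mutant and 0.74 in N2, miR-242 at 0.24 in the mutant and 0.84 in N2, and miR-2-5p at 0.31 in the mutant and 0.78 in N2. For miR-124-3p they were miR-231-3p (0.80), miR-242 (0.79) and miR-232-3p (0.79), so that the first 2 were the same as for lsy-6-3p. The closest to miR-790-5p were miR-61-5p (0.82), miR-229-3p (0.78) and miR-1022-5p (0.76). Nearest to miR-791-3p of 177 candidates over the 26 libraries were lin-4-5p (0.58), miR-51-5p (0.57) and miR-86-3p (0.56), and the last of these was at 0.83 within the mutant and 0.30 within N2.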

How the data were processed

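Small RNA libraries were made by the authors with the CleanTag kit from total RNA of whole larvae, and reads were trimmed and aligned to ce10 with Bowtie through QuasR. The deposited raw counts are same-strand reads starting near the 5′ end of each miRBase strand lifted to that build. The authors' second table holds log2 values of depth-scaled counts with a pseudocount of 8, and the counts gave these within 0.0005; only counts were tested. Of 439 deposited entries, the alleles of each miR-235 arm were summed, giving 437, of which 48 were at 0 in every library.

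CPM is the count divided by the library total and scaled in the usual way. Library totals had a median of 3005586 reads. Poisson and Wilson 95% intervals describe counting error alone, as no molecular identifiers were used. Counts were tested in edgeR 4.0.16 (R 4.3.3) with TMM factors, filterByExpr by strain (217 strands, 99.99% of reads), robust glmQLFit and glmQLFTest, with Benjamini-Hochberg adjustment over the 217 and a threshold of 0.01. Slopes are in log2 per h of TMM-scaled counts, beside strain and strain-specific cosine and sine of a 7 h period, so slope and rhythm are partly confounded. Strain differences were fitted beside a cubic B-spline with 6 components. Scripts were tested on simulated data. Permutation tests used 100000 resamples.

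At the same hour the deviations of the strains from their means correlated at r above 0.1 in 13 of 13 pairs (0.10 to 0.91 over 216 strands). The correlation was weak at 24 h (0.10) and 25 h (0.14), and a course over the hours common to the strains enters it. The same hour was the best match in only 3 of 13. The labels do not say whether the strains shared a culture batch. Named miRNAs were the members, the other strand of each hairpin, the 3 most alike strands, tissue markers and miR-235-3p. The members and lists were chosen with earlier results of these data known. Alternatives were size factors, total counts, other filters, DESeq2 1.42.0, limma 3.58.1, other periods, splines, shifted mutant hours and leaving out each library. Gene positions come from WBcel235 and are given by neighbouring genes only, as the counts use ce10. Mature sequences were not used here.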

Additional observations from a re-analysis of the deposited data

How the results depend on the processing

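The slopes of the 4 members over both strains stayed below 0 under every scaling, filter, tool, period and threshold run, but calls moved. miR-124-3p passed with total counts (−0.067 log2 per h), in DESeq2 (−0.048) and at a threshold of 0.05 (−0.049). Without a filter on low counts lsy-6-3p (−0.047) and miR-790-5p (−0.059) missed the threshold and 0 members were called (edgeR, adjusted p = 0.0574 and 0.0192, both with an unadjusted p under 0.05), and with a mean of at least 50 counts 1 was, since miR-790-5p and miR-791-3p were then not tested. Leaving out 1 library gave 1 to 3 falling members, with slopes from −0.067 to −0.0495 for lsy-6-3p and from −0.061 to −0.0396 for miR-124-3p; the N2 slope of miR-791-3p ranged from −0.0021 to 0.033, and was below 0 without the library of 30 h alone. The ratio slopes ranged from −0.021 to 0.0156 for lsy-6-3p over miR-791-3p and from −0.0021 to 0.025 for miR-124-3p over miR-791-3p. Total counts without let-7-5p, a setting chosen after seeing the data, called the same number of members, 2. All falling strands, 43 of 217, were 68 with total counts, 28 with no filter, and 66 and 65 in limma with pseudocounts of 8 and 1. Over these settings strands that fell in the mutant numbered 14 to 41 (14 as reported), in N2 12 to 52 (32), strands with a strain difference 1 to 35 (16), and rhythmic strands 3 to 23 in the mutant (5) and 6 to 25 in N2 (13). Leaving out 1 library gave 9 to 30 strands that fell in the mutant and 20 to 48 that fell in N2. The strain difference of miR-791-3p reversed with mutant hours set 1 h earlier (−0.034) and with 4 spline components (−0.00043), and ranged from −0.083 to 0.158 without 1 library. With each hour as a replicate block the strain differences were 0.11 for lsy-6-3p, 0.26 for miR-124-3p, −0.32 for miR-790-5p and 0.02 for miR-791-3p, and no member's call changed. The causes of these shifts were not tested, except where strands were not tested or libraries left out. Counts of 10 to 273 reads per library limit what can be seen of single members.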
